A study of Mus musculus with 7 samples.

Results

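Membranous nephropathy is a kidney disease in which antibodies bind to proteins on podocytes, the epithelial cells that wrap the glomerular capillaries. The genes of its 2 classical autoantigens, Thsd7a and Pla2r1, were followed here in glomeruli of mice. Both members, chosen by symbol, were measured, out of 12958 gene symbols in each table. Glomeruli, the filtering units of the kidney, were isolated with magnetic beads and sieves from 7 male BALB-C mice aged 14 weeks, with 1 library of RNA sequencing per animal. The knockdown group (n = 3) carried a transgene encoding an siRNA against Shroom3, an actin-binding protein of epithelial cells. The control group (n = 4) consisted of littermates that lacked this transgene. All mice in both groups were given doxycycline, in food as well as in water, for 6 weeks starting when they were 8 weeks old, so the controls share the drug but not the siRNA. The promoter that drives the transgene is not given in the sources used here, so the cells in which it acts cannot be named. The design asks whether glomeruli of mice labelled knockdown express these genes at another level than those of their littermates.

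THSD7A is a transmembrane protein whose extracellular part is a chain of thrombospondin type 1 repeats, and it lies in podocytes at the slit diaphragm. PLA2R, the product of Pla2r1, is a transmembrane receptor of the mannose receptor family that binds secreted phospholipases A2. In most patients with the primary disease the antibodies are directed against PLA2R, and in a smaller share against THSD7A. Mouse podocytes are known to carry THSD7A, while PLA2R is generally described as absent from them.

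Values are log2 expression as deposited, with neither counts nor depth, so counting error is unknown. Library medians lay between 9.15 and 9.16. The 5 libraries titled G (2 knockdown, 3 control) and the other two, titled CB6 (1 knockdown, 1 control), are shown apart where this matters. Across genes, the CB6 libraries deviated from their group means in opposite directions (r = -0.958, genes are not independent). Title style as a covariate could therefore move the fold changes little, and a call lost in that fit goes with nearly the same fold change. For both members and Shroom3, the mean of the CB6 pair equalled that of the 5 libraries titled G to within rounding. Centring by title style would give this, and the sources used here do not say whether it was done. If it was, the libraries are not independent, while limma and the permutation tests below take them as independent. In the 5 libraries titled G, 108 genes shared 1 profile to within 0.003, as a fixed fill-in value would give, and neither member was among them. The targeted gene itself did not separate the groups. Shroom3 was at 10.80, 10.91 and 10.89 in the knockdown libraries and at 10.94, 10.85, 11.36 and 11.06 in the control libraries, and its log2 fold change of -0.19 did not pass (limma, adjusted p = 0.417). The groups are therefore named as labelled. Podocyte genes were among the most abundant, with Podxl, the anionic coat protein podocalyxin, at a control mean of 16.88. Tubule genes were abundant too, with Lrp2, the endocytic receptor megalin of the proximal tubule, at 15.94 and Umod, the uromodulin of the thick ascending limb, at 15.34.

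Thsd7a lies on the minus strand of chromosome 6, from 12311610 to 12749410 (GRCm38; ENSMUSG00000032625.14), a span of 437.8 kb. GENCODE lists 6 transcripts, of which 2 are protein coding with 28 exons each, and both encode 1646 amino acids. Pla2r1 lies on the minus strand of chromosome 2, from 60417543 to 60553308 (GRCm38; ENSMUSG00000054580.14), a span of 135.8 kb. It also has 6 annotated transcripts, of which 1 is protein coding, with 30 exons and 1487 amino acids. The genes are on different chromosomes and belong to different protein families. No exon of Thsd7a overlaps an exon of another annotated gene. The antisense gene Gm13583 shares 299 exonic bases with Pla2r1 around its start, and without a statement on strand use the reads of the pair cannot be told apart there.

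In control glomeruli Thsd7a had one of the highest deposited values. Its value was 14.28, 13.65, 14.00 and 14.15 in control replicates 1 to 4, a mean of 14.02 ± 0.27 (SD). Control replicate 2 was the lowest, and the other 3 lay at or above 14.00. This mean was at the 99.3th percentile of all genes as deposited and at rank 85. Of 40 podocyte markers, 6 stood above it, and 13 did when each gene was divided by its annotated exonic length. Pla2r1 was expressed at a moderate level in the same libraries. It was at 11.35, 10.98, 11.16 and 11.08 in control replicates 1 to 4, with a mean of 11.14 ± 0.16 (SD) at the 84.5th percentile. Control replicate 2 was again the lowest and control replicate 1 the highest, as for Thsd7a. The gap between both genes was 2.88 on the deposited log2 scale, a 7.35-fold difference. Whether the deposited values were divided by gene length is not given in the sources used here. Divided by the annotated exonic length, 13.74 kb for Thsd7a and 9.62 kb for Pla2r1, the gap was 2.36, a 5.15-fold difference in level. That length joins the exons of all annotated transcripts, noncoding ones included. The coding transcripts are 10998 and 5678 bases long for Thsd7a and 7112 for Pla2r1. Division by the shorter Thsd7a form would widen the gap, so the effect of gene length on it is not settled. Transcript was thus measured for Pla2r1, but these bulk values do not say which glomerular cell it came from.

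Thsd7a fell to about 0.506 of its control level. The 3 knockdown libraries held 13.16, 12.90 and 13.05, a mean of 13.04 ± 0.13 (SD). The highest of them lay 0.49 below the lowest control, so the groups did not overlap. On the log2 scale the difference was -0.98, with an SE of 0.14 and a 95% CI from -1.31 to -0.66, which puts the knockdown level at 0.506 of control (95% CI 0.405 to 0.632). Thsd7a passed the test across all genes (limma, Benjamini-Hochberg adjusted p = 0.00934), 1 of the 2 members to do so. Over all genes 3.02% were called and 2.02% were called lower. Groups did not overlap at 18.4% of all genes, and at 7.55% the knockdown libraries were the lower ones. A two-sided exact permutation test of Thsd7a alone gave p = 0.0571, the smallest p that doubling the smaller tail allows when 3 of 7 libraries can be chosen in 35 ways. Within bulk glomeruli, fewer podocytes and less Thsd7a RNA per podocyte cannot be told apart.

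**Figure D1:**
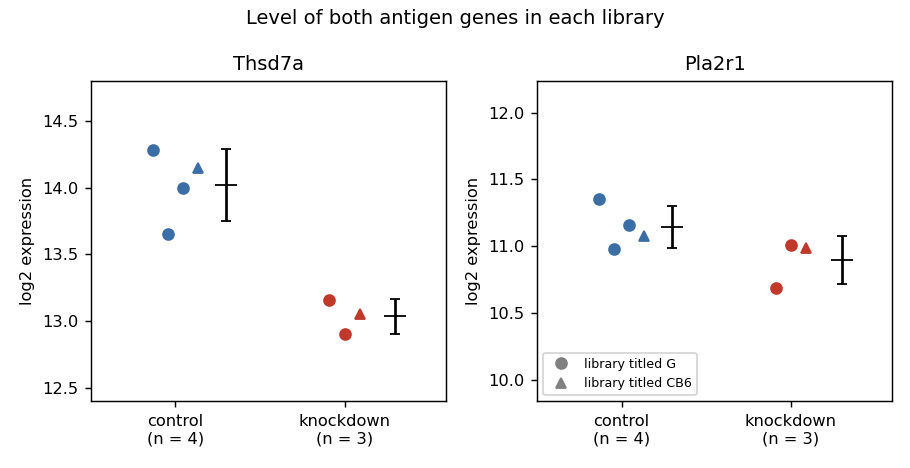
Log2 expression of Thsd7a (left) and Pla2r1 (right) in each library, with control libraries in blue and knockdown libraries in red. Circles are libraries titled G, triangles libraries titled CB6, and bars the group mean ± SD; both axes span the same number of log2 units. The knockdown libraries lie at 12.90 to 13.16 for Thsd7a, all below the controls, and overlap the controls for Pla2r1.

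Both kinds of library showed the difference in Thsd7a. It was -0.95 among the 5 libraries titled G and -1.10 within the CB6 pair. With title style as a covariate the log2 fold change was -0.99 and passed (limma, adjusted p = 0.0186), where 1.13% of all genes were called lower. Because the CB6 libraries deviated in opposite directions, this fit could hardly change the fold change and is no separate check. In the libraries titled G alone it no longer passed (limma, adjusted p = 0.155), where 0.201% of all genes were called lower. Without knockdown replicate 2, the lowest library, the log2 fold change was -0.92 and the adjusted p rose to 0.0579 (limma). Among the other libraries left out in turn, the adjusted p stayed between 0.00273 and 0.0442. By log2 fold change Thsd7a was the 109th lowest of all 12958 genes. Of the 132 genes with a mean at or above that of Thsd7a, itself included, 4 had a log2 fold change as low as or lower than -0.98. In the knockdown libraries Thsd7a stood at rank 272 of all genes by level, against rank 85 in controls.

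Pla2r1 differed by less, and the groups overlapped. Its knockdown values were 10.69, 11.01 and 10.99, a mean of 10.90 ± 0.18 (SD). Knockdown replicate 1 lay below all controls, while the other two lay just above control replicate 2. The log2 fold change was -0.24 (SE 0.11), with a 95% CI from -0.49 to just under 0, or a knockdown level of 0.844 of control (95% CI 0.713 to 1.0). With an unadjusted limma p of 0.0499, Pla2r1 did not pass over all genes (adjusted p = 0.271). Its exact permutation p was 0.171. Its difference was -0.31 among the libraries titled G and -0.09 within the CB6 pair. Without knockdown replicate 1 the log2 fold change was -0.14, which is smaller than the value over all libraries by over 1.5 times.

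Whether both genes differed unequally was asked within each library, since gene length cancels when these differences are compared between groups. The log2 difference Thsd7a minus Pla2r1 was 2.93, 2.67, 2.84 and 3.06 in control replicates 1 to 4 and 2.47, 1.89 and 2.06 in knockdown replicates 1 to 3. Every knockdown value lay below every control value, with a gap of 0.20. The group means differed by -0.74, with an exact permutation p of 0.0571, which is again the smallest that this form of the test allows and is above the threshold. The exact permutation test counted by absolute difference, a form added after the values were seen, gave p = 0.0286 here and for Thsd7a alone. That is the smallest p this form allows for 3 against 4 libraries.

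Of 40 measured podocyte markers, not counting the members, 4 fell and none rose, where 2.02% of all genes were called lower. The list as a whole had 32 log2 fold changes below 0, against 5682 of 12958 over all genes, and a median of -0.23, against 0.02. Clic3, a chloride intracellular channel protein of podocytes, was at 10.24 to 10.44 in knockdown and 11.12 to 11.53 in control libraries, a log2 fold change of -1.01 (limma, adjusted p = 0.00442). Magi2, which encodes a scaffold at the slit diaphragm, was at 10.97 to 11.04 against 11.43 to 11.85, a log2 fold change of -0.70 (limma, adjusted p = 0.00872). Vegfa, the growth factor by which podocytes maintain the endothelium, had -0.51, and Col4a3, a collagen chain of the basement membrane, -0.63. With title style as a covariate 2 of the 4 still passed, Clic3 and Magi2, and in the libraries titled G alone none did. Thsd7a had the lowest log2 fold change after Clic3, and 1 of the 40 markers lay below it. Pla2r1 lay in the middle, with 19 of the 40 markers below it. The abundant Podxl, at 0.19, did not pass, and neither did Nphs1, the gene of nephrin, at -0.11.

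**Figure D2:**
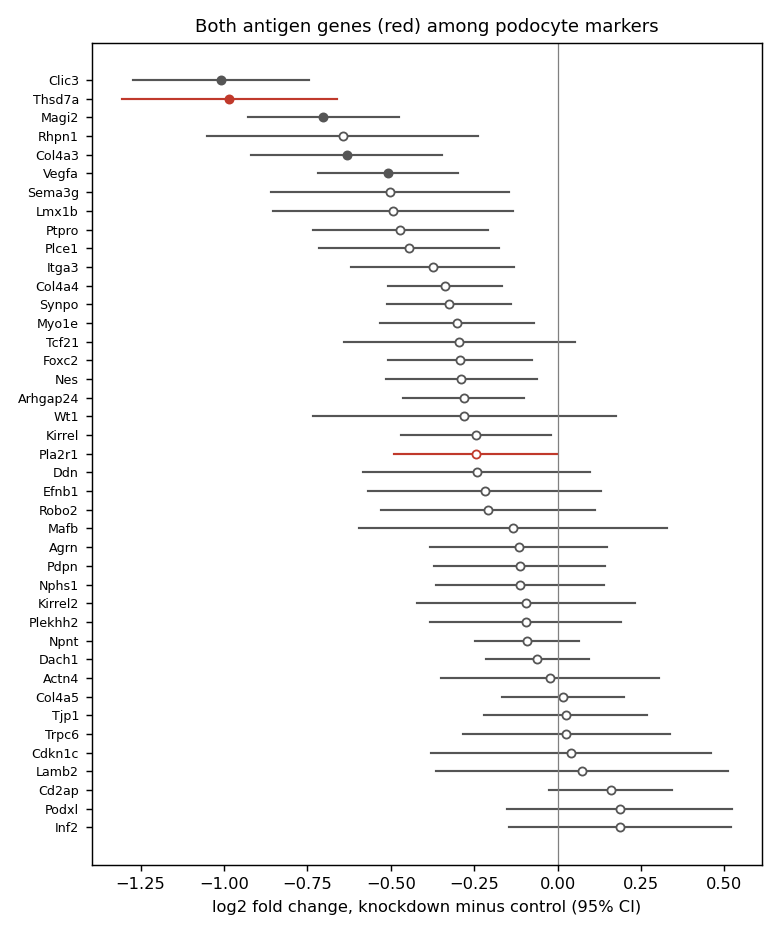
Log2 fold change of podocyte markers (1 of the 40 is not drawn), each with its 95% confidence interval (limma), ordered by size, with Thsd7a and Pla2r1 in red. Filled points passed an adjusted p of 0.05 and open points did not. Thsd7a, at -0.98, lies beside Clic3 at the low end, and Pla2r1, at -0.24, lies among markers that did not pass.

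The mean over these 40 markers was 11.79, 11.95 and 11.92 in knockdown replicates 1 to 3 and 12.25, 11.87, 12.25 and 12.13 in control replicates 1 to 4. Control replicate 2 fell inside the knockdown range, and this is the library with the lowest control values of both members. The group means of the marker list differed by -0.24, with overlapping groups (exact permutation p = 0.171). Set against this mean, Thsd7a was higher by 2.03, 1.78, 1.75 and 2.02 in control replicates 1 to 4 and by 1.37, 0.95 and 1.13 in knockdown replicates 1 to 3. The groups still did not overlap, with a gap of 0.38, and their means differed by -0.75. The exact permutation p was 0.0571, or 0.0286 from absolute differences, each the smallest that its form allows. Most of the difference in Thsd7a thus remained when each library was set against the mean of its own podocyte markers. With the median of the list it was -0.63. The list does not count podocytes, so fewer podocytes and less RNA per podocyte still cannot be told apart. Pla2r1 gave another picture. Against the marker mean it stood at -1.1, -0.94 and -0.93 in knockdown replicates 1 to 3 and at -0.90, -0.89, -1.09 and -1.04 in control replicates 1 to 4, so the groups overlapped. The group means differed by -0.01 (exact permutation p = 0.8). With the median of the list in place of its mean, this difference was 0.11 for Pla2r1.

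**Figure D3:**
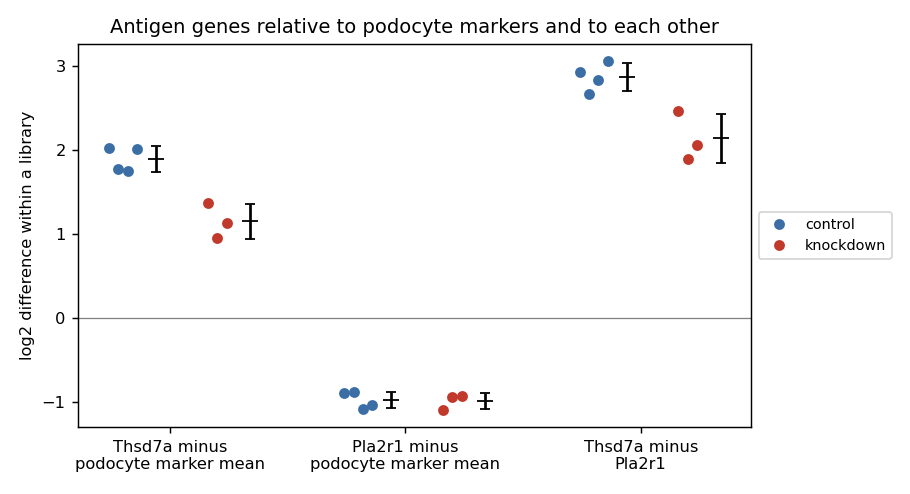
Log2 difference within each library between Thsd7a or Pla2r1 and the mean of 40 podocyte markers, and between both genes, with control libraries in blue, knockdown libraries in red and bars for the mean ± SD. Thsd7a stood 1.75 to 2.03 above the markers in controls and 0.95 to 1.37 above them in knockdown libraries, while Pla2r1 stood about as far below them in both groups.

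Markers of other cell types moved in the same libraries, and their part in the results above was not tested. Some proximal tubule markers differed by more than Thsd7a did: of 26, 11 fell and 1 rose, with a median log2 fold change of -0.39. Over all 12958 genes, 262 fell and 129 rose, which is the background for each count below. Cyp2e1, a cytochrome P450, went from a control mean of 13.48 to 10.22 (-3.26; limma, adjusted p = 7.66e-05), and Kap, an abundant androgen-regulated kidney gene, from 16.12 to 13.93 (-2.19; adjusted p = 0.00481). The transporter genes Slc22a12 and Slc7a13 fell by 2.26 and by 1.66 on that scale. Pck1, an enzyme of gluconeogenesis, rose from 14.52 to 16.01 (1.49; adjusted p = 0.00102). Once title style entered the fit 8 fell and 1 rose, and in the libraries titled G alone 2 fell and 1 rose. The summed antilog level of the list was 379000 to 482000 in knockdown and 440000 to 571000 in control libraries, and the abundant Lrp2, at -0.21, did not pass. The summed level of the 40 podocyte markers, 391000 to 457000 against 377000 to 503000, overlapped between the groups. None of 20 glomerular endothelial markers passed (median -0.23; summed level 100000 to 125000 against 110000 to 156000), with Plat at -0.09 and Ehd3 at -0.23. Mesangial and pericyte markers that fell numbered 2 of 10 (median -0.13; summed level 19500 to 23100 against 21100 to 29300). These were Sfrp2, a secreted modulator of Wnt signalling, at -0.98 (limma, adjusted p = 0.0343) and Serpine2, a protease inhibitor, at -0.39 (adjusted p = 0.0454), and neither passed once title style entered the fit (0.0644 and 0.0967). The abundant Pdgfrb and Agtr1a, at -0.10 and -0.19, did not pass. Distal nephron and collecting duct markers went the other way: 3 of 18 rose (median 0.24; summed level 121000 to 145000 against 106000 to 140000). Slc4a1, the anion exchanger of intercalated cells, was at 0.86, Atp6v1g3, a proton pump subunit, at 0.56 and Cldn8, a tight junction claudin, at 0.40. Of these, 1 (Slc4a1) passed once title style entered the fit and none in the libraries titled G alone. The abundant Umod and Slc12a1, at -0.15 and 0.20, did not pass. No marker passed among 9 of smooth muscle and renin cells (median 0.13; Mylk -0.48, Myh11 0.30) or 5 of parietal cells (median -0.13; Pax8 0.12, Scin -0.13). Of 15 immune cell markers 7 were measured and none passed (median 0.00; summed level 2790 to 3060 against 2760 to 3250), with Csf1r, a receptor of macrophages, at 0.00 and Itgax at -0.24. Of 9 red cell markers 2 were measured, of which Alas2 fell by 0.54 (limma, adjusted p = 0.0488) and Slc25a37 differed by -0.02. The call of Alas2 was lost once title style entered the fit (0.124) and in the libraries titled G alone (0.382).

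Across the 7 libraries Thsd7a and Pla2r1 had a Pearson correlation of 0.70 (Spearman 0.64), and of 0.35 for deviations from the group means. These points share groups, library preparation and scaling, so the values are descriptions. Pla2r1 correlated positively with 39 of the 40 podocyte markers, with a median of 0.77, and Thsd7a with 36, with a median of 0.63. Medians over all genes were -0.08 and -0.11. Kirrel, which encodes a nephrin-like protein of the slit diaphragm, was the marker closest to Pla2r1 (r = 0.97), and Magi2 the one closest to Thsd7a (r = 0.98). With so few libraries high values were common, and 265 genes exceeded 0.9 with Thsd7a and 186 with Pla2r1. Over the 7 libraries the 5 genes most like Thsd7a were Tppp, Tlr4, Ces2e, Nt5e and Ces2g (r from 0.990 to 0.996), and those most like Pla2r1 were Pcdh18, Pogk, Gng11, Slc25a24 and Kdr (r from 0.989 to 0.996). By deviations from group means, Thsd7a was most like Tlr4, Thsd1, Plekho2, Wif1 and Tppp (0.973 to 0.997). Pla2r1 was most like Cdc42se2, Abr, Lrrc49, Chmp7 and Pcdh18 by that measure (0.994 to 0.997). None of these genes is in the podocyte list. Kdr, the VEGF receptor of endothelial cells, is a marker of glomerular endothelium, and Thsd1 encodes another protein with a thrombospondin repeat.

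Other proteins are targets of antibodies in membranous nephropathy, and 12 of 15 such genes were measured. None passed (limma, the lowest adjusted p was 0.0535). Of the 12, 8 lay below 0, against 5682 of 12958 over all genes. The median log2 fold change was -0.07 against 0.02 over all genes. Ncam1, a neural cell adhesion molecule, came nearest, at 7.81 to 7.91 in knockdown and 8.21 to 8.74 in control libraries (log2 fold change -0.59; limma, adjusted p = 0.0535). It passed without control replicate 3 (adjusted p = 0.0372) and with quantile normalization (adjusted p = 0.0462). In 10 of 12 alternatives it did not pass. Among these were title style as a covariate (limma, adjusted p = 0.117) and the libraries titled G alone (0.39). Htra1, a secreted serine protease, differed by -0.18 and did not pass (limma, adjusted p = 0.131). Its groups did not overlap either (11.68 to 11.77 against 11.81 to 11.96). All knockdown values lay below the controls at 2 of the 12 genes, against 7.55% of all genes. The giant cadherin Fat1 was the most abundant of the list, at 14.31 ± 0.02 in knockdown and 14.45 ± 0.12 in control libraries (SD; n = 3 and 4), above Thsd7a, and differed by -0.14. The neutral endopeptidase Mme, the antigen of an alloimmune form in newborns, was at 12.71 ± 0.02 against 12.65 ± 0.08 (SD; n = 3 and 4) and differed by 0.06. Exostosins polymerise heparan sulfate, and their genes Ext1 and Ext2 differed by -0.12 and -0.20. The TGF-beta co-receptor Tgfbr3 and the TGF-beta binding protein Vasn were nearly level at -0.01 and -0.02, with signs that turned when single libraries were left out. Pcdh7, a protocadherin, differed by 0.19, Pcsk6, a proprotein convertase, by 0.21, Sema3b, a secreted semaphorin, by 0.08 and Cntn1, a contactin of nerve cells at a low control mean of 6.80, by -0.17. Per kilobase of exon the control level of Thsd7a was 10.24, close to Fat1 at 10.48 and Htra1 at 10.38, and that of Pla2r1 was 7.88, between Ext2 at 7.47 and Pcsk6 at 8.31.

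**Figure D4:**
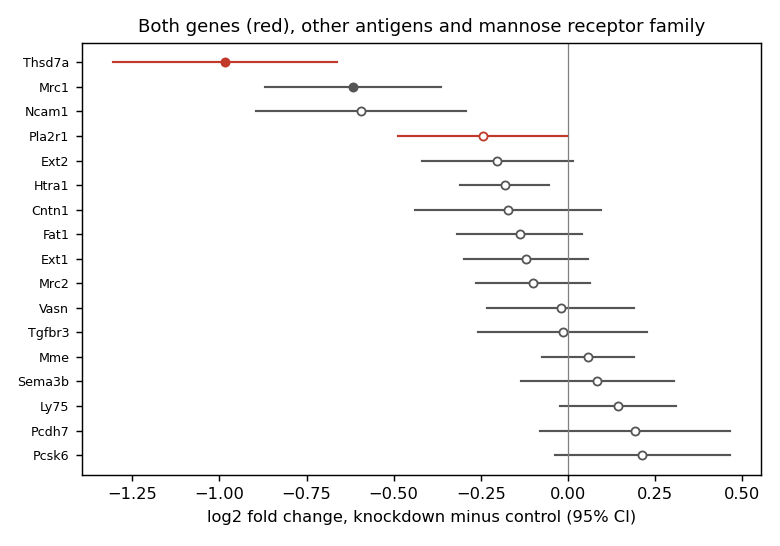
Log2 fold change with 95% confidence interval (limma) of Thsd7a and Pla2r1 (red), the 12 other measured antigen genes of membranous nephropathy, and the mannose receptor family genes Mrc1, Mrc2 and Ly75. Filled points passed an adjusted p of 0.05 and open points did not; Thsd7a at -0.98 and Mrc1 at -0.62 are filled.

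Pla2r1 has 3 relatives in the mannose receptor family, and 1 of them fell. Mrc1, the macrophage mannose receptor, was at 10.62 to 10.79 in knockdown and 11.10 to 11.51 in control libraries, a log2 fold change of -0.62 (limma, adjusted p = 0.0258). Once title style entered the fit, the log2 fold change of Mrc1 was still -0.62, but its call was lost (limma, adjusted p = 0.0504). The call was also lost in the libraries titled G alone (0.273), without control replicate 4 (0.0789), and without any single knockdown library (0.0737 to 0.1). Mrc2, a collagen-binding receptor, differed by -0.10. Ly75, the endocytic receptor DEC-205, differed by 0.14. The genes of secreted phospholipases A2, the ligands of PLA2R, were represented by 1 of 11 symbols. Pla2g12a was at 7.64 ± 0.31 in knockdown and 7.59 ± 0.14 in control libraries (SD; n = 3 and 4), near the 20th percentile of all genes. Among 31 measured genes of proteins with thrombospondin type 1 repeats besides Thsd7a, 21 had a log2 fold change below 0 (median -0.14). Over all genes 5682 of 12958 did (median 0.02). Of the 31, 1 passed, where 3.02% of all genes were called. Adamtsl2, a secreted matrix protein, fell from a low level of 7.25 to 6.64 (log2 fold change -0.61; limma, adjusted p = 0.0465). Its call was lost once title style entered the fit (adjusted p = 0.112) and in the libraries titled G alone (0.353). Closest to the threshold without passing were Adamts15, a secreted metalloprotease, at -0.47 (limma, adjusted p = 0.0532) and Thsd4, at 0.39 (adjusted p = 0.0587). Adamts15 was at 5.52 to 5.62 in knockdown and 5.95 to 6.14 in control libraries. Thsd4 was at 9.15 to 9.43 against 8.77 to 8.95. The groups overlapped at neither, as at 18.4% of all genes, and both genes were picked for their small p. Among the 31 genes with repeats, all knockdown values were lower at 6 and higher at 4, against 978 and 1402 of all 12958 genes. Thsd1 differed by -0.21.

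**Figure D5:**
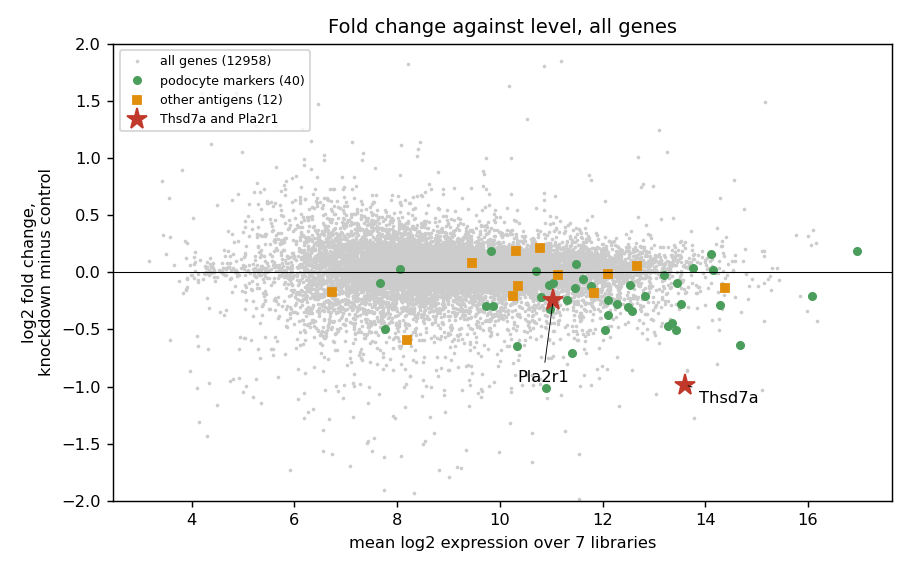
Log2 fold change, knockdown minus control, against mean log2 expression for all 12958 genes (grey), with 40 podocyte markers in green, 12 other antigens in orange and both members as red stars; 31 genes lie beyond the vertical axis. Thsd7a stands below nearly all genes of its level, while Pla2r1 lies within the spread of genes at its level.

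The neighbours of both genes, named by position after the values of the members were known, did not share one direction. Around Thsd7a, Phf14, 230.4 kb away, rose by 0.27 (limma, adjusted p = 0.038). Tmem106b, 320.3 kb away on the other side, differed by 0.15 and Ndufa4, 404.1 kb away, by 0.04. Around Pla2r1, its relative Ly75 lies 34.2 kb away and the next gene Cd302 differed by 0.13. Itgb6, an epithelial integrin chain 45.0 kb away, was at 11.35 ± 0.11 in knockdown and 11.77 ± 0.22 in control libraries (SD; n = 3 and 4), a log2 fold change of -0.42 that did not pass (limma, adjusted p = 0.0944), and Rbms1 differed by -0.08.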

How the data were processed

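Glomerular RNA was sequenced from 3 knockdown and 4 control mice. Reads were aligned with BWA against mm10, per the submitters' processing notes. How reads were counted, whether strand was used and how values were normalized is not given in the sources used here. Each library came as 1 table of log-scale values deposited by the authors, read as log2 from their range and near-equal sums of antilogarithms; another base would scale fold changes and leave tests unchanged. Knockdown was compared with control in limma 3.58.1 (R 4.3.3) with an intensity trend across all 12958 genes, without a filter. P-values were adjusted by Benjamini-Hochberg, and 0.05 was the threshold. Single values per library were compared by two-sided exact permutation (scipy 1.17.1), doubling the smaller tail. The fit was tested on simulated data. Annotation and exonic lengths came from GENCODE M21 (GRCm38, the assembly of mm10). Named genes are both members, every measured gene of the antigen and mannose receptor lists, called genes of the other antigen-related lists (the most abundant where none was called), the most abundant genes of each cell type list, up to 4 called podocyte markers, Shroom3 and the 5 most correlated genes; neighbours, Nphs1, Adamts15, Thsd4 and the called tubule and mesangial markers were added after values were seen. A few genes covered by the rule are not reported here. Members and lists were chosen with earlier results of these data known, so their directions are not independent support. Alternatives were quantile and median scaling, the upper part of genes by mean, no trend, title style as a covariate, the libraries titled G alone, and leaving out each library.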

Additional observations from a re-analysis of the deposited data

Results flagged for a closer look

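Of 21 sets of 4 control values checked (both members, the values relative to podocyte markers and to each other, the podocyte marker mean, the other antigens and the mannose receptor family), 1 held a library far from the others. Mrc2 was at 10.99, 10.77, 11.01 and 10.98 in control replicates 1 to 4, and the gap below control replicate 2 took up 0.863 of the range, above Dixon's critical value for 4 samples. Chance alone marks about 1 in 20 such sets. Control replicate 2 also had the lowest control value of Thsd7a, Pla2r1 and the podocyte marker mean, though none of these gaps passed that value.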

How the results depend on the processing

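The number of genes called was 391, and 40 in the libraries titled G alone, 191 with title style as a covariate, and 124 and 846 at thresholds of 0.01 and 0.1. With 1 library left out it ran from 134 (without knockdown replicate 2) to 480 (without control replicate 2), with 203 and 147 without knockdown replicates 1 and 3 and 146 without control replicate 4. Thsd7a kept its direction in all 13 alternatives, from -1.11 to -0.90, and lost its call in 2: -0.95 in the libraries titled G alone and -0.92 without knockdown replicate 2, both with fewer samples. Pla2r1 ran from -0.31 to -0.14 and never passed (limma, adjusted p from 0.172 to 0.576). Relative to podocyte markers, Thsd7a ran from -0.86 to -0.63; relative to Pla2r1 it ran from -0.91 to -0.61. With 1 library left out, the doubled-tail exact p cannot go below 0.1. The exact permutation test by absolute difference, added after seeing the data, left these differences at -0.75 and -0.74 with p = 0.0286, the smallest that form allows. Pla2r1 relative to podocyte markers, near 0 throughout, turned to 0.11 with the list's median, and ran from -0.04 to 0.05 with 1 library left out (0.02 without control replicate 1 or 2). Tgfbr3 ran from -0.08 to 0.06 with 1 library left out; it turned to 0.06, 0.02 and 0.05 without control replicates 1 and 3 and knockdown replicate 1, and to 0.00 with quantile normalization. Vasn ran from -0.10 to 0.04 and turned to 0.01 and 0.04 without control replicates 1 and 3. The cause was not tested. A run without a filter equals the reported fit. Depth is unknown.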
